A study of Danio rerio with 6 samples.

Results

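The miRNA loci MIR200B (ENSDARG00000081868), mir429b (ENSDARG00000082968), mir203b (ENSDARG00000083357) and MIR203B (ENSDARG00000081779) belong to families known for epithelial cells. They were taken by identifier, with no rule on measured values but with earlier results of these data known. They are 4 of the 434 annotated miRNA loci in the count tables. The samples were telencephalic hemispheres of adult zebrafish, the telencephalon being the front part of the forebrain. The control group held 3 small RNA libraries from healthy hemispheres that received no treatment, and the injured group held 3 libraries from hemispheres wounded with a needle. Per the study the RNA was prepared days after the lesion. Its mRNA libraries used the opposite hemisphere of the injured brain as control and the RNA for small RNA libraries was prepared in the same way, so control and injured hemispheres may come from the same fish. The labels call the controls healthy, name no fish, strain, age or transgene and do not say how many fish stand behind a library, so p-values measure only the spread between these libraries.

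A miRNA is a short RNA that guides a repressor complex to mRNAs through pairing of its seed, a few bases near its 5′ end. The miR-200 family (miR-200a, miR-200b, miR-200c, miR-141 and miR-429) is known from mammals as an epithelial family that represses the transcription factors ZEB1 and ZEB2 and so maintains E-cadherin. In zebrafish and mouse it is also known for the differentiation of olfactory progenitors. miR-203 is abundant in skin, where in mouse it represses p63, a factor that keeps epidermal progenitors undifferentiated. In zebrafish it is known to restrain Lef1 in the regenerating fin.

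Symbols came from a table of identifiers, which gives MIR200B to a second locus, ENSDARG00000080713. In what follows MIR200B means ENSDARG00000081868 and the other is called the second MIR200B locus. The same table names 3 more loci of these families, mir141 (ENSDARG00000080489), mir200a (ENSDARG00000081399) and dre-mir-429 (ENSDARG00000081438). In the RefSeq annotation (GRCz12tu, whereas the counts were made on GRCz11), mir200b, mir200a and dre-mir-429 follow each other with 0 genes between them, and so do mir429b, mir141 and mir200c. Which MIR200B locus is mir200b and which is mir200c was not settled, so neither can be placed in these groups of neighbours. The miR-203 genes have 0 neighbours of these families. Single loci remain uncertain where near-identical copies of a miRNA gene can share reads.

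Control libraries held 2475462 to 4008607 reads at miRNA loci and injured libraries 11473850 to 14545864, a ratio of means of 4.12, so depth and group cannot be told apart. Levels are given as RPM, reads per 1000000 reads at miRNA loci. The 20 loci of neuronal miRNAs, a check of the labelled brain tissue, summed to 134581 to 147681 RPM in control and 126643 to 139241 RPM in injured libraries. dre-mir-132-2 alone made up 93.2% to 94.4% of this sum, and the rest summed to 9017 to 9213 RPM in control and 7094 to 8267 RPM in injured libraries. Of the 20 loci, 15 stayed below 30 RPM in every library, among them 1 at 0 and all 7 loci of miR-124, the defining neuronal miRNA, at 1.14 to 21.8 RPM. A locus whose mature sequence occurs elsewhere can lose reads to the mapping quality limit, and whether this lowered the miR-124 counts was not tested. In bulk tissue, fewer cells of a type and less of the RNA in each cell cannot be told apart.

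The 4 loci together took between 0.0452% and 0.0894% of the reads of a library. Most of this came from mir203b, which made up 68.0% to 79.9% of their reads. By mean level over the 6 libraries mir203b ranked 74 among the 188 expressed loci, MIR203B 113, MIR200B 137 and mir429b 146. An expressed locus is one with a mean normalised count above 10. All 4 passed this limit, which looked at the mean of both groups together.

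MIR200B, a locus of the seed group shared by miR-200b, miR-200c and miR-429, was counted with 96, 97 and 63 reads in control 1, 2 and 3 and with 243, 411 and 297 reads in injured 1, 2 and 3. As levels these were 36.5, 24.2 and 25.4 RPM in control and 16.7, 35.6 and 25.9 RPM in injured libraries. The highest control and the highest injured library stood close together, while injured 1 was the lowest of the 6. Exact Poisson 95% intervals, which cover counting error only, ran from 14.7 to 18.9 RPM in injured 1 and from 32.3 to 39.3 RPM in injured 2, so these libraries of 1 group differed by more than counting error. The group means were 28.7 ± 6.80 and 26.1 ± 9.47 RPM (SD, n = 3 each).

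mir429b, of the same family, had 33.5, 16.7 and 22.2 RPM in control 1, 2 and 3. The injured libraries had 9.56, 20.8 and 14.03 RPM. Control 1 was again the highest control, injured 2 the highest and injured 1 the lowest injured library, and of the injured libraries only injured 2 lay within the control range. The means were 24.1 ± 8.56 RPM in control and 14.8 ± 5.67 RPM in injured libraries (SD, n = 3 each).

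mir203b, the most abundant of the 4, had 331, 524 and 453 RPM in control 1, 2 and 3. The injured libraries had 350.3, 468 and 714 RPM. Control 1, the highest control library for MIR200B and mir429b, was the lowest for mir203b, and injured 3 was the highest of all 6 libraries. The means were 436 ± 97.5 and 511 ± 186 RPM (SD, n = 3 each).

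MIR203B, the other miR-203 locus, had 86.0, 114 and 83.2 RPM in control libraries. In injured libraries it had 75.6, 108 and 140.1 RPM. Control 2 was the highest control and injured 3 the highest injured library, as for mir203b, and the groups overlapped. The means were 94.3 ± 16.9 and 108 ± 32.3 RPM (SD, n = 3 each).

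**Figure D1:**
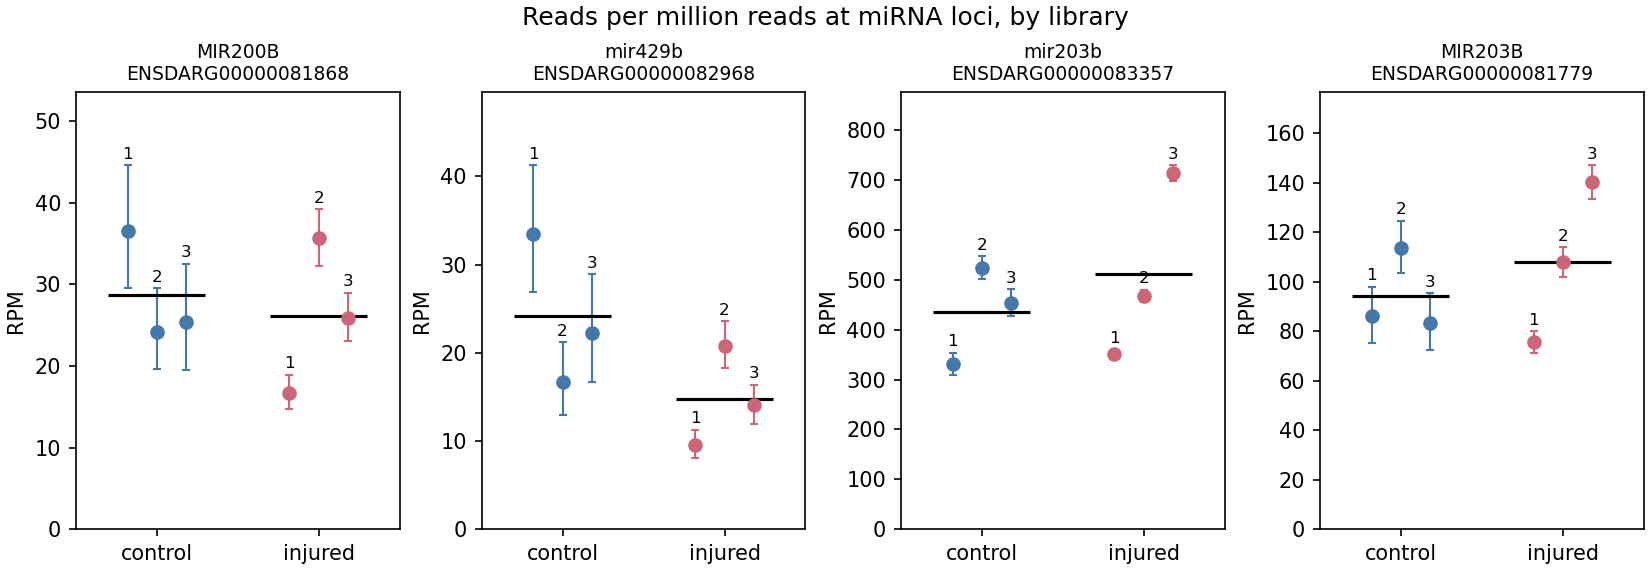
Level of each of the 4 loci in each library, in RPM on linear axes that start at 0. Points are libraries numbered by replicate with exact Poisson 95% intervals, and black lines are the means of 3 libraries; in each panel the groups overlap, with injured 1 the lowest injured library.

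The 4 loci varied more between libraries of 1 group than most miRNA loci did. Over the injured libraries the SD of log2 RPM was 0.55 for MIR200B, 0.56 for mir429b, 0.52 for mir203b and 0.45 for MIR203B, where the median of the 188 expressed loci was 0.14. These values exceeded those of 96.3%, 96.8%, 94.7% and 91.5% of expressed loci. Counting error alone would give an SD of 0.083, 0.11, 0.019 and 0.040 for these counts. In the control libraries the SDs were 0.32, 0.50, 0.34 and 0.25, against a median of 0.13, and they exceeded those of 79.3%, 92.6%, 81.4% and 72.9% of loci. There counting error alone would give 0.16, 0.17, 0.042 and 0.089, which for MIR200B and mir429b is already above the median. The highest injured library had 2.13 times the level of the lowest for MIR200B, 2.18 times for mir429b, 2.04 times for mir203b and 1.85 times for MIR203B.

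Not every locus of the family shared this spread. mir141 lay between 172 and 202 RPM in control and between 175 and 211.4 RPM in injured libraries, and its SD of log2 RPM was 0.13 and 0.14. The second MIR200B locus had SDs of 0.29 and 0.18, at 73.9 to 110.03 RPM in control and 89.4 to 115 RPM in injured libraries. mir200a, with SDs of 0.33 and 0.44, and dre-mir-429, with 0.49 and 0.44, varied about as much as the 4 loci. mir200a ranged from 126.4 to 192 RPM in control and from 89.8 to 158 RPM in injured libraries. dre-mir-429 ranged from 159.97 to 308 RPM and from 119 to 218.3 RPM.

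**Figure D2:**
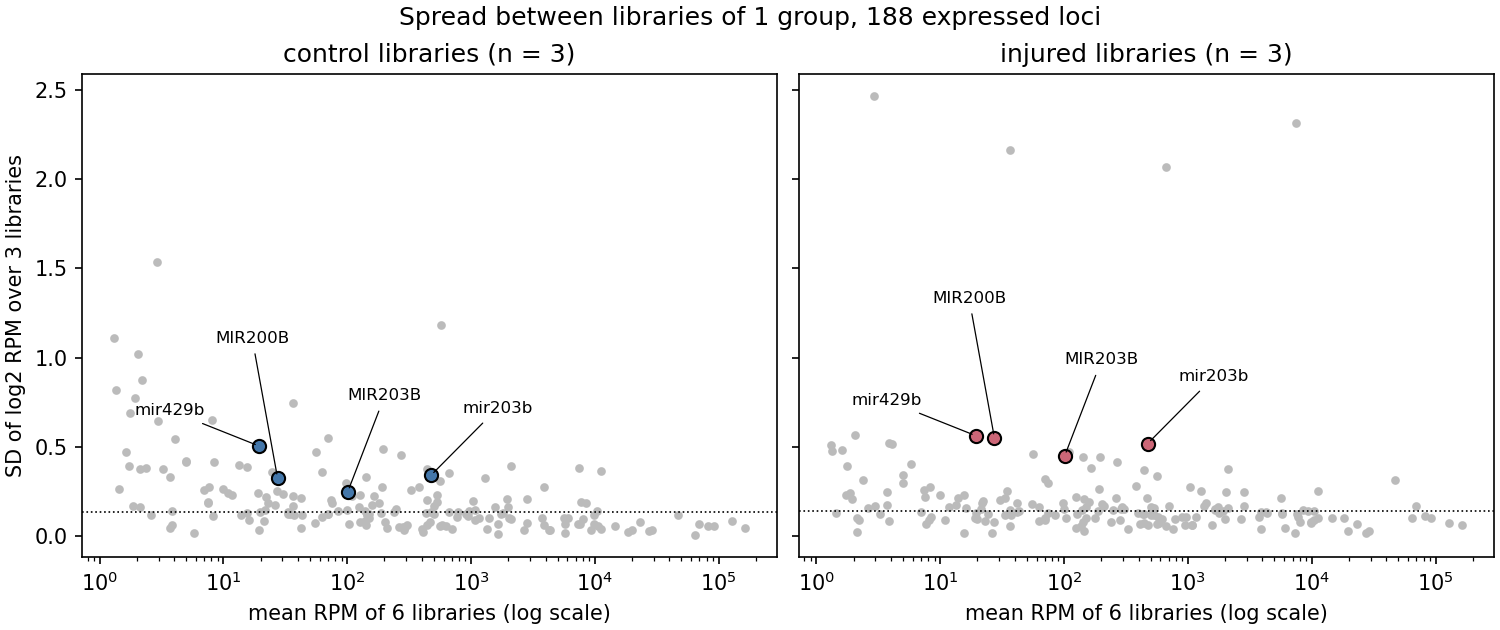
SD of log2 RPM over the 3 libraries of each group against the mean level over 6 libraries (log scale), 1 grey point per expressed locus, with the 4 loci in colour and the median as a dotted line. In the injured libraries the 4 loci sit between 0.45 and 0.56, where the median of all loci is 0.14.

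The loci did not vary as 1 block. Likeness was measured as the SD over the 6 libraries of the log2 ratio of 2 loci, which is 0 when the ratio is constant and does not depend on how libraries are scaled. mir203b and MIR203B had a ratio of 3.85, 4.61 and 5.45 in control and 4.64, 4.34 and 5.10 in injured libraries. The SD was 0.18, above the 0.076 that counting error alone would give, so this ratio was not constant either. MIR200B and mir429b had an SD of 0.33, where counting error alone would give 0.19. Among these 4 loci the ratios across the families were less even. The ratio of mir429b to mir203b ran from 0.0196 in injured 3 to 0.101 in control 1, a range of 5.15-fold and an SD of 0.82. The ratios of MIR200B to mir203b and MIR203B had SDs of 0.58 and 0.46, and that of mir429b to MIR203B had an SD of 0.73.

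Set against the 180 expressed loci outside these families, MIR200B was most like mir200a and dre-mir-429, of its own family. Its ratio to mir200a was 0.190, 0.182 and 0.201 in control and 0.186, 0.226 and 0.176 in injured libraries. The SD of this ratio was 0.13, no more than the 0.14 that counting error would give, and 0 of the 180 other loci came closer. The ratio to dre-mir-429 had an SD of 0.19, again with 0 of 180 loci closer. The ratios of MIR200B to mir429b and to mir141 had SDs of 0.33 each, with 3 of the 180 loci closer to it in each case. That to the second MIR200B locus had 0.34, with 6 of 180 closer.

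mir429b followed the same loci. Its closest was dre-mir-429, with an SD of 0.30, then MIR200B with 0.33 and mir200a with 0.36, and 0 of the 180 other loci came closer than these. With mir141, its neighbour in RefSeq, the SD was 0.58 and 20 of 180 loci came closer. dre-mir-429 lies in the other group of neighbours. Whether reads shared between near-identical loci add to these likenesses, or to that of mir203b and MIR203B, was not tested. Outside the families, the nearest loci to MIR200B were mir9-5 (0.29), MIR221 (0.29) and MIR9-2 (0.32), and to mir429b the same 3 with 0.41, 0.47 and 0.50. mir9-5 had 10 to 58 reads per library, so counting error alone would give an SD of 0.35 for its ratio to MIR200B and 0.36 for that to mir429b.

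For mir203b the nearest of the 180 loci was dre-mir-205 (ENSDARG00000081646), another miRNA known for its abundance in stratified epithelia. dre-mir-205 had 303, 507 and 363 RPM in control 1, 2 and 3. In the injured libraries it had 398, 434 and 645 RPM, again highest in injured 3. The ratio of mir203b to dre-mir-205 was 1.09, 1.03 and 1.25 in control and 0.879, 1.08 and 1.11 in injured libraries, an SD of 0.16, where counting error would give 0.047. MIR203B had an SD of 0.20 against dre-mir-205, second to MIR30C1 with 0.16. For mir203b, mir1788, with 6 to 66 reads per library, came second with 0.17 and mir10c followed with 0.19. Counting error alone would give 0.35 for the ratio to mir1788, so its place says little about likeness. mir10c was also the third locus for MIR203B, with 0.20. MIR200B and mir429b did not share this pattern, with SDs of 0.63 and 0.89 against dre-mir-205 and 150 and 153 of 180 loci closer.

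The loci could thus be described as a pair of groups, put together after their values had been seen and so without a test. Within MIR200B, mir429b, mir200a and dre-mir-429 the SDs of the 6 ratios ran from 0.13 to 0.36. Within mir203b, MIR203B and dre-mir-205 those of the 3 ratios ran from 0.16 to 0.20, and those of the 12 ratios across the groups from 0.39 to 0.89. Left out of both groups were mir141 and the second MIR200B locus, also of the miR-200 family. Their ratio to each other had an SD of 0.15, where counting error alone would give 0.085. MIR203B had SDs of 0.31 and 0.30 against them, below the 0.36 reached within the first group, while mir203b had 0.41 and 0.45. The gap between the groups thus depends on leaving these loci out. The first group was highest in control 1 and, among the injured libraries, in injured 2, and the second in control 2 and in injured 3. All 7 loci were lowest in injured 1 among the injured libraries. The 9 epithelial loci of the marker list are these 7, mir141 and the second MIR200B locus. They summed to 1602, 1779.7 and 1482 RPM in control and to 1324, 1768 and 2156 RPM in injured libraries. Of these 9, 0 were called changed, where 12.8% of all loci tested were. With only 9 loci, a count of 0 is not far below that share. For comparison, the sensory epithelial loci of miR-183, miR-96 and miR-182 summed to 1894.5, 1410 and 1119 RPM in control. In injured libraries these sensory loci summed to 11527, 1406 and 31827 RPM. Of the 3, 0 were called changed by edgeR, at adjusted p-values of 0.073 to 0.095. Their median log2 fold change was 3.29, against 0.06 for the 9 epithelial loci, and the study, with DESeq2, reported miR-182 as raised. The part of the sensory loci in the differences between libraries was not tested.

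**Figure D3:**
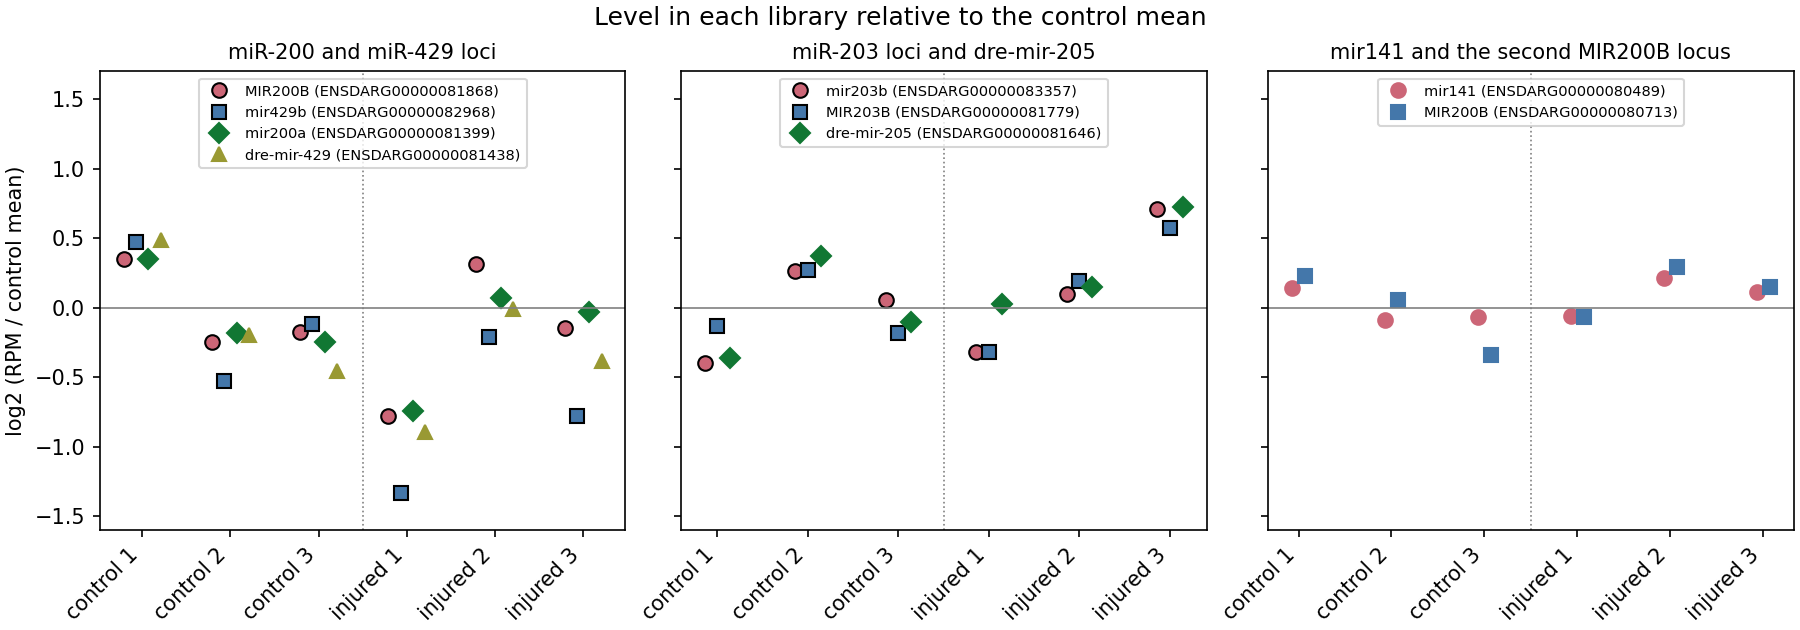
Level in each library relative to the control mean, as log2 of the ratio of RPM values, for the 4 loci (black-edged markers) and 5 related loci in 3 panels. MIR200B, mir429b, mir200a and dre-mir-429 are highest in control 1 and lowest in injured 1, mir203b, MIR203B and dre-mir-205 are highest in injured 3, and mir141 moves least.

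None of the 4 loci was called changed after injury. The comparison asked which miRNAs differ in level between injured and control hemispheres, with edgeR's quasi-likelihood test and Benjamini-Hochberg adjustment over 188 loci, called at an adjusted p below 0.05. Of all loci tested, 24 (12.8%) were called, 41 had an unadjusted edgeR p below 0.05, DESeq2 called 31 and limma-voom 18. Of the 4 loci 0 were called, 0 at an unadjusted p below 0.05, 0 by DESeq2 and 0 by limma-voom. With only 4 loci, a count of 0 is not far below these shares. Injured and control levels overlapped for each of the 4, while 22.9% of all loci had all injured libraries above or all below the controls. The median log2 fold change was −0.0049 for the 4 loci and 0.03 for all loci tested. Over all 8 loci of the families it was −0.06, with 4 values above 0, 4 below and 0 called.

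mir429b had the largest difference of the 4, with a log2 fold change estimated at −0.73 and an SE of 0.36 (adjusted p = 0.322 by edgeR, unadjusted p = 0.0788). Its 95% interval ran from 0.336-fold to 1.08-fold of the control level, so a fall to 0.336-fold and no change both lay within it. Without injured 2 the estimate was −1.05 (edgeR adjusted p = 0.101), and without control 1 it was −0.42. It stayed below 0 under all 17 alternatives, among them Bonferroni adjustments, which change p-values and not estimates.

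For MIR200B the estimate was −0.17 on the log2 scale with an SE of 0.31 (adjusted p = 0.841 by edgeR) and an interval from 0.539-fold to 1.46-fold. Single libraries set its direction, as the estimate was 0.080 without injured 1, 0.042 without control 1 and −0.46 without injured 2. mir203b had 0.20 (SE 0.29; edgeR adjusted p = 0.792; interval 0.721-fold to 1.83-fold). Without injured 3 its estimate turned to −0.14, and without injured 1 it was 0.42. MIR203B had 0.16 (SE 0.25; edgeR adjusted p = 0.798; interval 0.7496-fold to 1.67-fold), −0.096 without injured 3 and 0.37 without injured 1. The intervals of these 3 loci include falls and rises, and a change of 2-fold in either direction lies outside each of them. However, edgeR draws the spread of each locus towards that of other loci, and these loci varied more than most. Intervals from their own spread alone could be wider, so a change of 2-fold is not excluded.

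The other family loci had narrower or like intervals. For mir141 the interval was 0.854-fold to 1.27-fold and for the second MIR200B locus 0.8097-fold to 1.41-fold. For mir200a it was 0.5597-fold to 1.30-fold and for dre-mir-429 0.457-fold to 1.22-fold. For dre-mir-205 the log2 estimate was 0.30 with an SE of 0.25 (adjusted p = 0.541 by edgeR, interval 0.826-fold to 1.84-fold).

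**Figure D4:**
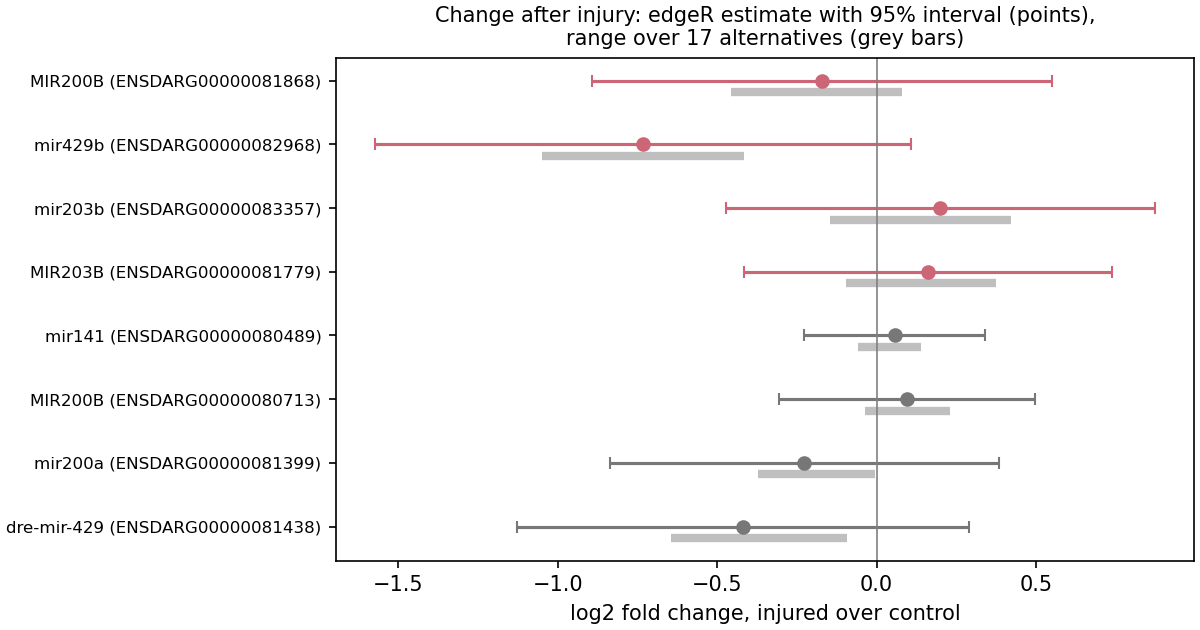
Log2 fold change of injured over control for the 8 loci of the families, as the edgeR estimate with its 95% interval (the 4 loci in red) and, in grey, the range of the estimate over 17 alternative analyses. Each interval spans 0, and mir429b, at −0.73, lies farthest from it.

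One ratio between the 4 loci differed between the groups without overlap. MIR200B had 1.09, 1.45 and 1.15 reads per read of mir429b in control 1, 2 and 3. In injured 1, 2 and 3 it had 1.75, 1.71 and 1.84 reads. By exact binomial 95% intervals, control 2 (1.05 to 2.01) could not be told from injured 2 (1.46 to 2.02), while control 1 (0.808 to 1.47) lay below injured 3 (1.52 to 2.25). Every other pair of a control and an injured library had overlapping intervals. This was 1 of the 6 ratios among the 4 loci. Of all 17578 ratios between expressed loci, 28.0% parted the groups in this way, so 1 of 6 was not above that background.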

How the data were processed

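The authors prepared small RNA libraries from 3 control and 3 injured hemispheres. Per the study's methods, reads were trimmed with Cutadapt to the length of mature miRNAs. By the same account they were aligned to GRCz11 with STAR, with 1 mismatch allowed (the submitters' processing notes name BWA). They were then counted at annotated miRNA loci with HTSeq, keeping alignments above a mapping quality limit. A locus whose mature sequence occurs elsewhere can therefore lose reads. The authors deposited raw counts per locus, 1 table per library, with no normalisation. HTSeq summary lines were left out (11.4% to 12.3% of reads fell outside the loci). Tool versions: not given in the sources used here.

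RPM used the summed counts at miRNA loci. The test was edgeR 4.0.16 in R 4.3.3 on counts scaled by TMM (trimmed mean of M values), with the group as the only term, over the 188 of 434 loci with a mean normalised count above 10. SEs and intervals came from the fold change and its test statistic. Ratios for likeness used counts plus 0.5. DESeq2 1.42.0, limma 3.58.1 (voom), other scalings, filters and adjustments, a replicate block, thinning and each library left out were alternatives. Named loci are the 4 loci, others of their families by symbol, and for each of the 4 the 3 expressed loci outside the families with the smallest SD of the log2 ratio. The loci and lists were chosen with earlier results of these data known. Of the expressed loci in the lists for other cells, 2 of 2 leucocyte loci were called higher and 1 of 19 neuron loci lower. Both leucocyte loci carry the symbol MIR142, and the other 2 loci of that list, MIR223 and mir150, had 0 reads in every library. Calls were 0 of 3 sensory, 0 of 2 erythrocyte, 0 of 1 muscle and 0 of 2 endothelial loci. They were 0 of 1 choroid plexus, 0 of 4 pituitary and 0 of 1 mesenchyme loci. The uncalled sensory loci had a median log2 fold change of 3.29. Over all loci tested 12.8% were called. Libraries of a pair differed by a chi-square per degree of freedom of 42.8 to 1982, far beyond sampling noise, and were all kept. On counts simulated for this comparison, 38 of 38 changed loci were recovered. The fold changes and spread set for those loci are not given here, and recovery at the spread of the 4 loci was not tested.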

Additional observations from a re-analysis of the deposited data

How the results depend on the processing

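The count of called loci among the 4 was 0 under all 17 alternatives, as was that among the 8 loci of the families. Under alternatives, 10 of the 136 log2 fold changes of these 8 loci turned in sign, none past the threshold. The alternatives include Bonferroni adjustments of edgeR and DESeq2, which could neither turn a sign nor add a call to those of the same method. MIR200B gave 0.042 without control 1 and 0.080 without injured 1. Without injured 3, mir203b gave −0.14 and MIR203B −0.096. mir141 gave −0.060 with upper-quartile scaling, −0.031 without control 2 and −0.0017 without injured 2. The second MIR200B locus gave −0.017 with upper-quartile scaling, −0.0027 with thinned reads and −0.038 without control 3. The median of all loci shifted by −0.11 under upper-quartile scaling, and relative to that shift neither locus turned. Leaving out 1 library gave −0.46 to 0.080 for MIR200B, −0.14 to 0.42 for mir203b, −0.096 to 0.37 for MIR203B, −0.031 to 0.14 for mir141 and −0.038 to 0.23 for the second MIR200B locus. The cause of the sign changes was not tested. Among all loci, 20 were called higher and 4 lower. Bonferroni adjustment left 6 with edgeR, 4 higher and 2 lower, by its stricter limit, and 19 with DESeq2, 15 higher and 4 lower. Upper-quartile scaling gave 11 higher and 5 lower, thinned reads 13 higher, and DESeq2 22 higher and 9 lower. Leaving out 1 library gave 10 to 24 calls, 7 to 18 of them higher and 3 to 6 lower. The 32 mean levels and 8 likeness values recomputed under alternatives moved by less than their spread or counting error. Leaving out 1 of 3 libraries cannot move a mean by more than the SD of the 3. For those means the outcome was thus fixed in advance and says nothing about stability.

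In the fit with a replicate block, edgeR called 0 of the 4 loci and 22 of all loci. Across loci, deviations of libraries 1, 2 and 3 from their group means correlated between the groups at 0.29, 0.12 and 0.038. Between libraries of different numbers the values ran from −0.20 (control 2 with injured 1) to 0.082 (control 3 with injured 2). The values 0.29 and 0.12 lay above that range and 0.038 within it. The controls may be opposite hemispheres of the injured brains, as the study describes for its mRNA libraries, but no source used here ties a number to a fish, so the numbers were not taken to pair the libraries.

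Depth limits the control libraries, where mir429b had 55 to 88 reads and MIR200B 63 to 97.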
